A study of Homo sapiens with 4 samples.

Results

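The mRNA levels of 9 genes of HLA class I antigen presentation were examined in 2 lines, MDS-L and its AZA-resistant derivative MDS-L/CDA, with and without azacitidine (AZA). The genes were HLA-B, HLA-C, HLA-E, HLA-F and HLA-G, which encode heavy chains, B2M, TAP1, TAP2 and NLRC5. Every gene probe whose name in the array design equalled 1 of these names was taken, which gave 16 probes for 9 of the 43311 names on the array, where a probe without a gene name counts under its own. MDS-L is a line established from cells of a patient with myelodysplastic syndrome, and MDS-L/CDA carries transduced CDA, whose product deaminates cytidine analogues. Per the labels, the medium of both lines held IL-3 at 20 ng/mL, 2-mercaptoethanol at 50 μM and 10% FBS, and exposure lasted 72 h, to AZA at 1 μM or to vehicle, which was DMSO at 0.1%. The sources used here do not say whether MDS-L/CDA is a single clone. Total RNA of each of the 4 conditions was labelled with Cy3 and hybridized to 1 one-colour Agilent array, so that there were 4 arrays on 1 slide and no replicates. No difference between conditions could be tested, and every ratio compares 1 array with 1 array.

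For 2 of the arrays, MDS-L AZA and MDS-L/CDA vehicle, the treatment field of the labels names the other treatment, whereas title, description and source name share the treatment used here. The titles give the AZA dose in mM, and the other fields give 1 μM. Signals are given here as the scaled signal, which is the processed signal of a probe divided by the 75th percentile of all gene probes on its array. Those percentiles lay between 37.3 and 52.9, and between 32.6% and 36.5% of 58185 probes were well above background by the flag of the scanner software, with no saturated spot. A probe that was not well above background was set to the higher of its own signal and the dimmest signal flagged as measurable on that array. Where the dimmest signal was used the ratio is a bound, and otherwise it is imprecise. The CDA probe was well above background on 0 of 4 arrays. Whether the transduced copy contains the bases of that probe is not given in the sources used here, so it did not serve as a check of the line. Of 10 myeloid progenitor markers, 9 were well above background on all 4 arrays, including CD34, CD33, SPI1 and PTPRC, while MPO, which encodes myeloperoxidase, was well above background on none. Of 4 fibroblast markers, 0 were well above background on any array. The T cell markers CD3D and CD2 were well above background with AZA in MDS-L cells (scaled signals 4.47 and 1.29) but not with vehicle (0.177 and 0.217), CD2 was well above background with AZA in MDS-L/CDA too (0.451), and the other T cell markers, CD3E, CD3G and CD8A, were well above background on no array. The summed scaled signal was between 0.545 and 6.12 for the 5 T cell markers, with the highest value in MDS-L AZA, between 15.7 and 21.1 for 4 B cell markers, between 0.304 and 1.26 for 4 monocyte and macrophage markers and between 6.73 and 9.75 for 5 epithelial markers, beside 494 to 647 for the myeloid progenitor markers. Of the myeloid progenitor markers, KIT, which encodes the stem cell factor receptor, had scaled signals of 0.503 with vehicle and 23.8 with AZA in MDS-L, and 0.346 and 1.24 in MDS-L/CDA, so that it was 47.3-fold and 3.58-fold higher with AZA. GATA2, a transcription factor of hematopoietic progenitors, was 2.46-fold and 2.01-fold higher. The part of these markers in the values below was not tested. In RNA from a whole culture, fewer cells of a type and less RNA per cell cannot be told apart.

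Class I molecules consist of a polymorphic heavy chain and β2-microglobulin, the product of B2M, and present peptides from inside the cell to CD8+ T cells. The proteasome cuts the peptides, TAP1 and TAP2 together carry them into the endoplasmic reticulum, and chaperones and aminopeptidases load and trim them there. HLA-B and HLA-C are classical heavy chains. HLA-E, HLA-F and HLA-G are nonclassical, vary little between people and are also seen by receptors of natural killer cells. NLRC5 is a transactivator that binds no DNA by itself and acts on class I promoters together with RFX, NF-Y and CREB family proteins. AZA is a cytidine analogue that is incorporated into RNA and DNA and traps DNA methyltransferases.

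The probes of B2M, HLA-F and NLRC5 lie in coding sequence, and their 60 bases are shown because they fix which transcripts the signals below can come from. In the hg19 coordinates of the array design the probes lie at chr15:45007773-45007832 for B2M, chr6:29693280-29693338 for HLA-F and chr16:57077428-57077487 for NLRC5, each on the plus strand.
B2M probe: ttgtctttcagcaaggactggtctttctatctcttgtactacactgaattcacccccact
HLA-F probe: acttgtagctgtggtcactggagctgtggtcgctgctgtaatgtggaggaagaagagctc
NLRC5 probe: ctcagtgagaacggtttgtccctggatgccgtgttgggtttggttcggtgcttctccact
The design lists RefSeq transcripts of both HLA-F and HLA-H for the HLA-F probe, so signal from these near-identical genes could not be separated. The RefSeq transcripts listed for both HLA-B probes that gave signal include HLA-C transcripts too.

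The HLA-B and HLA-C names overlap further. The brightest probe named HLA-C lies at chr6:31321644-31321703, within the place where the HLA-B probes lie, and shares 41 positions with the 2 of them. The middle of this overlap, chr6:31321672-31321700 on the minus strand, is shown because probes of both names share these positions. The capital marks the base that differs.
HLA-B, brightest probe: gtcaattcctggaaGttgagagagcaaat
HLA-B, other probe: gtcaattcctggaaTttgagagagcaaat
HLA-C, brightest probe: gtcaattcctggaaGttgagagagcaaat
Relative to the brightest HLA-B probe, the other HLA-B probe has the substitution G15T, counted from the first base shown, and the HLA-C probe has 0 differences over all 41 positions. A second HLA-C probe lies at chr6:31236617-31236676 and shares no run of 20 bases with any other gene probe on the array. HLA-C transcripts of RefSeq are listed for this second probe, whereas no RefSeq transcript could be assigned to the brightest HLA-C probe. The alleles carried by these cells were not analysed here.

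HLA-B had a scaled signal of 6.76 with vehicle and 7.50 with AZA in MDS-L, and 4.89 and 4.36 in MDS-L/CDA for its brightest probe. Both MDS-L arrays were thus above both MDS-L/CDA arrays. With AZA the ratio was 1.11 in MDS-L and 0.890 in MDS-L/CDA. The error that can be given for a ratio is the SD expected from the spread between spots of 1 probe on an array, read from 300 probes that have 10 spots each, and for HLA-B it was 0.22 and 0.35 on the log2 scale against log2 ratios of 0.15 and -0.17. This SD covers spots on the array, not cultures or RNA preparations. The direction in MDS-L turned to lower under median scaling. The other HLA-B probe gave 5.26, 6.93, 4.60 and 4.77 in the same order, with log2 ratios of 0.40 for AZA in MDS-L and 0.05 in MDS-L/CDA. The remaining HLA-B probe, with no position in the files, was below background on every array.

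HLA-C had a scaled signal of 66.2 with vehicle and 42.2 with AZA in MDS-L, and 53.4 and 31.9 in MDS-L/CDA for its brightest probe. The signal was lower with AZA in both lines, by 1.57-fold (log2 ratio -0.65, spot SD 0.16) in MDS-L and 1.67-fold (log2 ratio -0.74, spot SD 0.24) in MDS-L/CDA. The second HLA-C probe, the one in the HLA-C gene, gave 42.9, 35.6, 29.2 and 23.8, again lower with AZA in both lines, with log2 ratios of -0.27 and -0.29. Neither probe reached a 2-fold difference with AZA. HLA-C was lower with AZA in both lines under each of 10 alternative ways of processing that gave ratios, from -1.19 to -0.27 in MDS-L and from -0.80 to -0.29 in MDS-L/CDA. Most of these alternatives use the brightest probe, which lies where the HLA-B probes lie. Of the overlapping probes, the HLA-B probes gave AZA ratios above 1 in MDS-L and the HLA-C probe gave 1 below it. For the brightest HLA-B probe the log2 ratio was within its spot SD. In MDS-L/CDA the brightest probes of both names gave ratios below 1, again within the spot SD for HLA-B, and the other HLA-B probe gave 1.04.

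**Figure D1:**
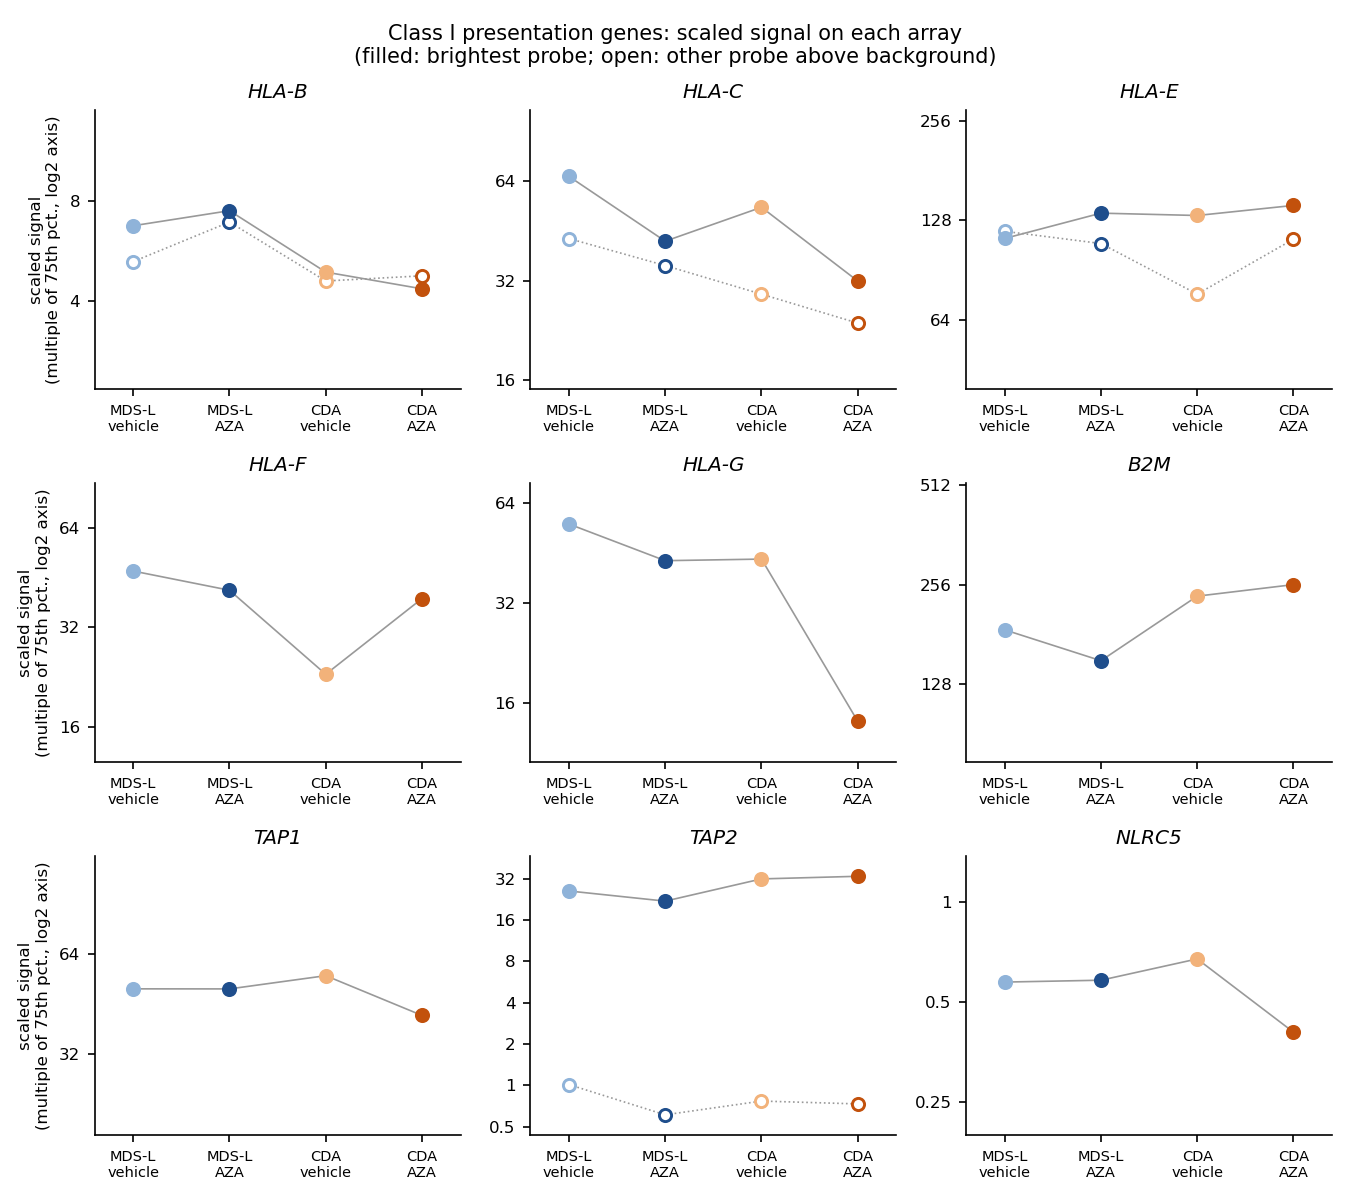
Scaled signal (multiple of the 75th percentile of the array, log2 axis with its own range in each panel) of the 9 genes on the 4 arrays, where CDA stands for MDS-L/CDA. Filled points are the brightest probe and open points another probe well above background. HLA-G was lowest in MDS-L/CDA AZA (14.1 against 43.0 to 55.5 times the 75th percentile on the other arrays), and HLA-F was lowest in MDS-L/CDA vehicle (23.1).

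HLA-E, which presents leader peptides of other class I chains, had a scaled signal of 112.8 with vehicle and 134.5 with AZA in MDS-L, and 132.3 and 141.9 in MDS-L/CDA. Its brightest probe varied 1.26-fold over the 4 arrays, the smallest range among the 9 genes. The log2 ratio with AZA was 0.25 in MDS-L (spot SD 0.15), where median scaling turned it to lower, and 0.10 in MDS-L/CDA (spot SD 0.21). The second HLA-E probe gave 118.6, 108.9, 76.6 and 112.2, with a log2 ratio of 0.55 for AZA in MDS-L/CDA and -0.12 in MDS-L. Runs of 20 bases of this second probe were shared with 9 other gene probes, whereas the brightest probe shared none, so the level from the second probe is uncertain.

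HLA-F had a scaled signal of 47.3 with vehicle and 41.4 with AZA in MDS-L, and 23.1 and 39.1 in MDS-L/CDA. The MDS-L/CDA vehicle array stood below the others. In MDS-L/CDA cells HLA-F was 1.69-fold higher with AZA (log2 ratio 0.76, spot SD 0.25), which ranked 810th from the highest of 15393 genes measured. In MDS-L cells the log2 ratio was -0.19 (spot SD 0.16), and it was above 0 under quantile normalization, in the authors' value table, under spike-in scaling and as a mean over probes. The other HLA-F probe, for which the design lists HLA-F transcripts only, was below background on every array, and the mean over probes includes it. All HLA-F values here thus come from the probe listed for both HLA-F and HLA-H.

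HLA-G, which is known for its expression on trophoblast and for inhibitory signals to immune cells, had a scaled signal of 55.5 with vehicle and 43.0 with AZA in MDS-L, and 43.5 and 14.1 in MDS-L/CDA. The MDS-L/CDA AZA array alone was low. HLA-G was 3.09-fold lower with AZA in MDS-L/CDA (log2 ratio -1.63, spot SD 0.27), 79th from the lowest of 15393 genes measured, and 1.29-fold lower in MDS-L (log2 ratio -0.37, spot SD 0.16). Over the 10 alternatives the log2 ratio ranged from -1.68 to -1.58 in MDS-L/CDA and from -0.91 to -0.12 in MDS-L. HLA-G is represented by 1 probe and 1 spot per array, at chr6:29798694-29798753 on the plus strand, which shared no run of 20 bases with another gene probe.

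B2M encodes the light chain shared by all class I heavy chains. Its probe has 10 spots on each array, which gives its ratios a smaller error than those of the other genes. The scaled signal was 187.1 with vehicle and 150.9 with AZA in MDS-L, and 236.4 and 256.2 in MDS-L/CDA. In MDS-L, spots ranged from 170 to 199 with vehicle and, over the 9 without an outlier flag, from 138 to 165 with AZA. In MDS-L/CDA they ranged from 216 to 267 with vehicle and from 221 to 289 with AZA. On this scaling the spots of the MDS-L arrays did not overlap with each other or with those of MDS-L/CDA, whereas those of the 2 MDS-L/CDA arrays overlapped. Such spots do not measure the spread between cultures, and the share of other probes with 10 spots that separate in this way is not given here. Under median scaling B2M was lower in MDS-L/CDA than in MDS-L on the vehicle arrays (log2 ratio -0.19). With AZA, B2M was 1.24-fold lower in MDS-L (log2 ratio -0.31, SD of the mean over spots 0.04) and 1.08-fold higher in MDS-L/CDA (log2 ratio 0.12, SD 0.05). These directions held under the 10 alternatives, from -0.85 to -0.07 in MDS-L and from 0.01 to 0.16 in MDS-L/CDA. Some of these alternatives cannot change a gene that has a single probe well above background on every array.

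**Figure D2:**
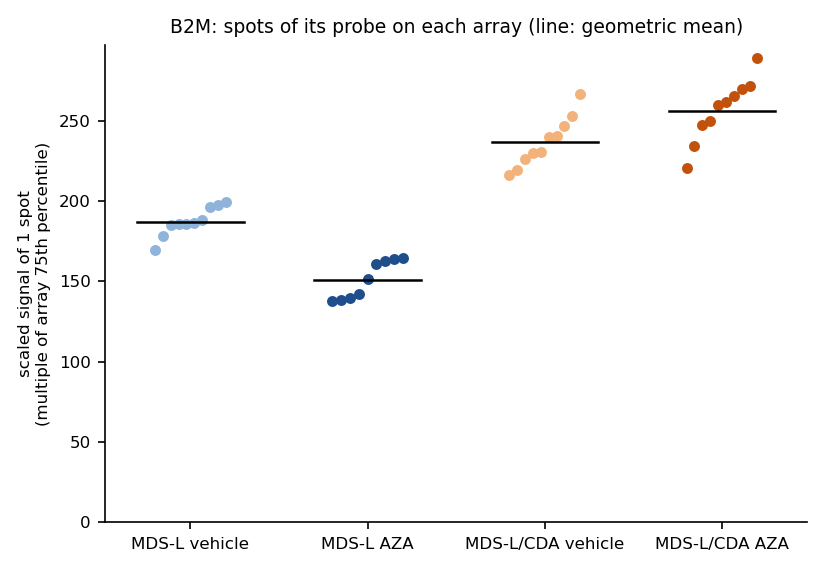
Scaled signal of each spot of the B2M probe (multiple of the 75th percentile of the array, axis from 0) on the 4 arrays, with points for spots in order of brightness and lines for geometric means. On this scaling the spots of MDS-L AZA, at 138 to 165, lay below those of every other array.

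TAP1 and TAP2 pair to form the peptide transporter. The scaled signal of TAP1 was 50.3 with vehicle and 50.3 with AZA in MDS-L, and 55.1 and 41.8 in MDS-L/CDA. With AZA the log2 ratio of TAP1 was -0.00071 in MDS-L and -0.40 in MDS-L/CDA (spot SD 0.16 and 0.24). The TAP1 probe shared a run of 20 bases with a probe named PSMB8-AS1. TAP2 gave 26.1, 22.0, 31.9 and 33.4 for its brightest probe, with the MDS-L/CDA arrays above the MDS-L arrays. Its log2 ratio with AZA was -0.25 in MDS-L (spot SD 0.17) and 0.06 in MDS-L/CDA (spot SD 0.26), the latter below 0 under normexp background correction and as a mean over probes. A dimmer TAP2 probe gave 1.01, 0.611, 0.770 and 0.734 in the same order.

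NLRC5 was dim. Its brightest probe gave scaled signals of 0.575 with vehicle and 0.582 with AZA in MDS-L, and 0.675 and 0.405 in MDS-L/CDA, close to the lowest signal well above background, which was between 0.190 and 0.296 on these arrays. The signal in MDS-L/CDA was 1.66-fold lower with AZA (log2 ratio -0.74), where the spot SD was 0.56. The log2 ratio in MDS-L was 0.02 and changed sign in 4 of 10 alternatives, some of which could not change it. The other NLRC5 probe was below background on every array, and the mean over probes, among those alternatives, includes it.

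A gene was counted as higher or lower when the ratio of its brightest probe was at least 2, among genes well above background on at least 1 array of the pair. By this count 0 of 9 genes were higher or lower with AZA in MDS-L, where 6.73% of 17172 genes measured were higher and 6.03% lower. In MDS-L/CDA, HLA-G alone was lower and 0 of 9 were higher, against 3.07% lower and 2.53% higher of 15393 genes. Across the 9 genes the median log2 ratio with AZA was -0.19 in the MDS-L line and -0.17 in MDS-L/CDA, beside -0.13 and 0.02 for all genes measured. With AZA, 6 of 9 genes were below a ratio of 1 in MDS-L and 5 of 9 in MDS-L/CDA. In MDS-L, TAP1 at a log2 ratio of -0.00071 ranked 10103rd from the lowest of 17172 genes, so most genes measured were below 1 too. In MDS-L/CDA, TAP2 at 0.06 ranked 8452nd from the lowest of 15393.

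Between the lines, on the vehicle arrays, HLA-F was lower in MDS-L/CDA by 2.05-fold (log2 ratio -1.04, spot SD 0.19) and was the only one of the 9 genes to differ by 2-fold, against 2.64% lower and 1.97% higher among 16015 genes measured. That ratio was below 2-fold under spike-in scaling (log2 ratio -0.93) and as a mean over probes (log2 ratio -0.11). The mean includes the probe listed for HLA-F alone, which was below background on every array. The probe that gave the 2.05-fold difference is listed for HLA-H too. HLA-B was 1.38-fold lower (log2 ratio -0.47, spot SD 0.25). The other measured HLA-B probe gave -0.19 (spot SD 0.25). As a mean over probes, which includes the HLA-B probe below background, HLA-B was higher (0.66). B2M was 1.26-fold higher (log2 ratio 0.34, SD 0.04), and lower under median scaling. The median of the 9 genes was 0.13, and 0.08 for all genes.

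On the AZA arrays, HLA-G was 3.06-fold lower in MDS-L/CDA than in MDS-L (log2 ratio -1.61, spot SD 0.25), and it was the only one of the 9 genes counted, against 5.23% lower and 5.43% higher among 16739 genes. B2M was 1.70-fold higher in MDS-L/CDA (log2 ratio 0.76, SD 0.05) and TAP2 1.52-fold higher (log2 ratio 0.60, spot SD 0.23), while HLA-B was 1.72-fold lower (log2 ratio -0.78, spot SD 0.33), and 2-fold lower (-1.03) with arrays scaled to the probes well above background on all of them. The other measured probes gave log2 ratios of -0.54 (spot SD 0.31) for HLA-B and 0.26 (spot SD 0.40) for TAP2. TAP1 had a log2 ratio of -0.27 (spot SD 0.23). HLA-F, which differed between the vehicle arrays, had a log2 ratio of -0.08 here. The median of the 9 genes was -0.27, and that of all genes was 0.20. The 4 comparisons use each array in 2 of them, so they are not independent of each other.

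**Figure D3:**
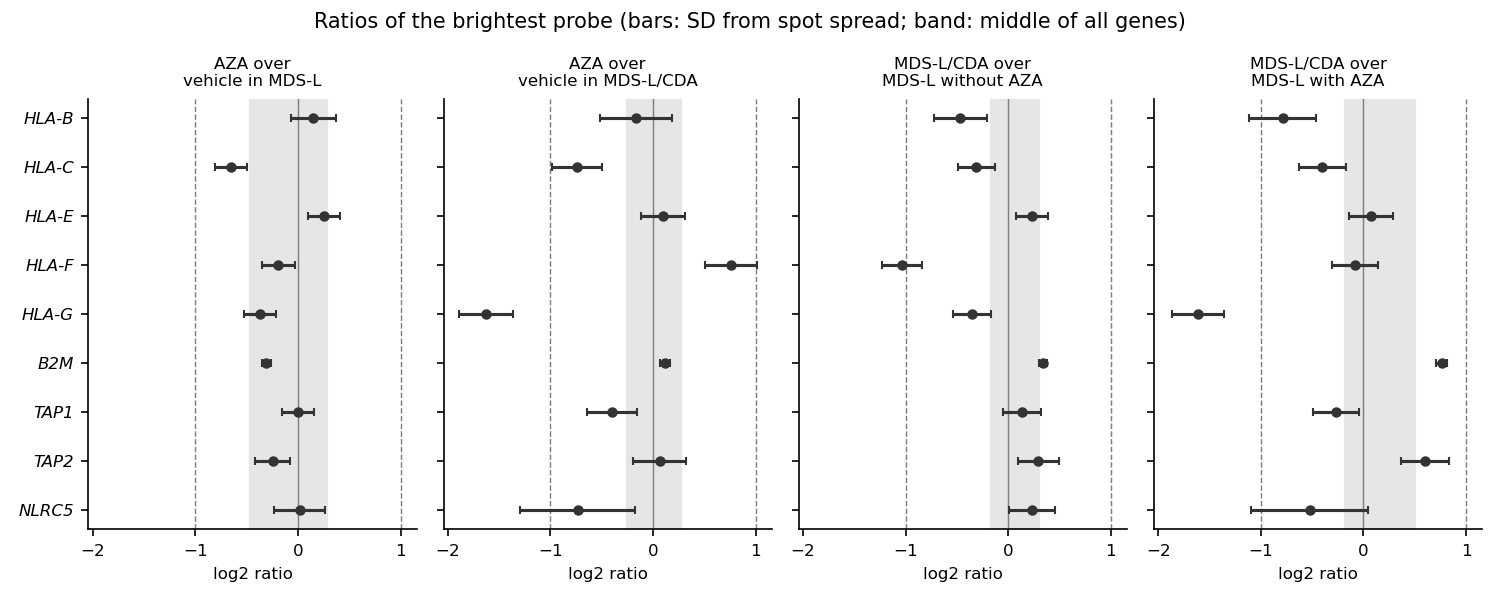
Log2 ratio of the brightest probe of each gene in the 4 comparisons, with bars for the SD expected from the spread between spots, a band for the middle 50% of all genes measured and dashed lines at 2-fold. HLA-G lay beyond 2-fold in MDS-L/CDA with AZA (-1.63) and between the lines with AZA (-1.61), and HLA-F between the lines with vehicle (-1.04).

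The difference between the AZA log2 ratios of the lines, MDS-L/CDA minus MDS-L, was -1.26 for HLA-G (spot SD 0.31), 0.95 for HLA-F (0.30), 0.43 for B2M (0.06) and -0.75 for NLRC5 (0.61). For HLA-B, HLA-C, HLA-E, TAP1 and TAP2 it lay between -0.40 and 0.31. Whether these differences exceed the variation between cultures was not tested.

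Promoters of 7 of the 9 genes were in the RefSeq table used, and those of HLA-G, HLA-F and HLA-B are shown because the first 2 had the largest and opposite AZA ratios in MDS-L/CDA, with HLA-B as a classical gene. Each is the 250 bases before the start of a RefSeq transcript in GRCh38.p14, at chr6:29827575-29827824 (plus strand), chr6:29723184-29723433 (plus strand) and chr6:31357180-31357429 (minus strand). Capitals mark matches, on either strand, to CCAAT (the core bound by NF-Y) and TGACG (a partial CREB site), which do not overlap here.
HLA-G promoter: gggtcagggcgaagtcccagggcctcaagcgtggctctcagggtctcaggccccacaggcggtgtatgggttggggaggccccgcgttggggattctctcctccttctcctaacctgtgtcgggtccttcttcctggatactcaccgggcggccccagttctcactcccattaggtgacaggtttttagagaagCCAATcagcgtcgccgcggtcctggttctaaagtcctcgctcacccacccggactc
HLA-F promoter: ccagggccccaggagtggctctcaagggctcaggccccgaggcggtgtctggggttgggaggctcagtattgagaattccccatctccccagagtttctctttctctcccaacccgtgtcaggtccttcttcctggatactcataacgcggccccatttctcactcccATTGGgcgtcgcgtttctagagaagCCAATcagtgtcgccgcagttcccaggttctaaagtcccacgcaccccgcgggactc
HLA-B promoter: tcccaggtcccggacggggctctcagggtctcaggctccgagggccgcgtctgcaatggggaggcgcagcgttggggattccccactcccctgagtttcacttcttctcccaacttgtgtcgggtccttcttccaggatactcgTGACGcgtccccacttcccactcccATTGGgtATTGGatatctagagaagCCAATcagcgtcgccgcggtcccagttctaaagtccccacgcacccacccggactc
The HLA-G window matched CCAAT at 1 place, HLA-F at 2 and HLA-B at 3. TGACG was matched at 1 place in HLA-B and not in the windows of HLA-F and HLA-G. Of 35116 RefSeq promoter windows of this length, 32.0% held CCAAT and 21.2% TGACG. CG dinucleotides numbered 14 in the HLA-G window, 13 in HLA-F and 17 in HLA-B, beside a median of 11 over all windows. These matches describe letters only, and methylation was not measured on these arrays. Other RefSeq transcripts of HLA-G start further upstream and were not printed.

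Over all genes measured, 12.8% differed at least 2-fold in either direction with AZA in MDS-L, 5.59% with AZA in MDS-L/CDA, 4.61% between the vehicle arrays and 10.7% between the AZA arrays, and the lists below are read beside these shares. Genes that load and trim peptides (TAPBP, TAPBPL, CALR, CANX, PDIA3, ERAP1 and ERAP2) were all below a ratio of 1 with AZA in MDS-L (5 of 7 under quantile normalization, in the authors' value table, under spike-in scaling and with arrays scaled to probes well above background on all of them). The median log2 ratio of the 7 was -0.53, beside -0.13 for all genes measured. ERAP2, an aminopeptidase that trims peptides in the endoplasmic reticulum, was the only one of these 7 to be 2-fold lower there, whereas 4 of 7 were under median scaling, with a median of -1.07, beside -0.67 for all genes under that scaling. Of all genes, 25.2% were 2-fold lower with AZA in MDS-L under that scaling. The scaled signal of ERAP2 was 2.06 with vehicle and 0.524 with AZA in MDS-L, and 1.93 and 1.53 in MDS-L/CDA, so the MDS-L AZA array alone was low, by 3.94-fold from vehicle. In MDS-L/CDA 0 of 7 differed 2-fold with AZA, and the median was -0.13. With AZA, ERAP2 and TAPBPL, a tapasin-related peptide editor, were 2.93-fold and 2.27-fold higher in MDS-L/CDA than in MDS-L. Both were within 2-fold under normexp background correction (log2 ratios 0.59 and 0.41), and TAPBPL was with arrays scaled to probes well above background on all of them (0.93). Normexp added an offset of 50 to every signal, beside array 75th percentiles of 37.3 to 52.9. That offset draws ratios of dim probes toward 1, so being within 2-fold under it says little about dim genes.

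Of 8 proteasome genes, the immunoproteasome subunits PSMB8, PSMB9 and PSMB10, the constitutive subunits PSMB5, PSMB6 and PSMB7 and the activator genes PSME1 and PSME2, 8 were below a ratio of 1 with AZA in MDS-L (6 of 8 under the same 4 settings) and 6 in MDS-L/CDA (5 of 8 under them). Their median log2 ratios were -0.53 and -0.23, beside -0.13 and 0.02 for all genes measured. PSME1 was the only one of the 8 counted, lower by 2.28-fold in MDS-L and 2.11-fold in MDS-L/CDA. It was within 2-fold under normexp, whose offset draws dim ratios toward 1, in both lines and under spike-in scaling in MDS-L. Under median scaling 5 of 8 were 2-fold lower in MDS-L, with a median of -1.07, where 25.2% of all genes were lower. The PSME1 scaled signals were 2.66, 1.17, 4.07 and 1.93 in the order used above. With AZA, 0 of the 8 differed 2-fold between the lines.

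Of 11 genes for factors of class I promoters (RFX5, RFXAP, RFXANK, NFYA, NFYB, NFYC, CREB1, IRF1, IRF2, NFKB1 and RELA), IRF2 alone was lower with AZA in MDS-L, by 2.17-fold. Its signal with AZA there (0.231) was not well above background but exceeded the dimmest measurable signal (0.190), so this ratio is imprecise. IRF2 encodes an interferon regulatory factor. With AZA it was 3.29-fold higher in MDS-L/CDA than in MDS-L, a ratio that uses the same imprecise signal. NFKB1, which encodes the p50 precursor of NF-kappaB, was 2.07-fold higher in that comparison. The lower IRF2 signal in MDS-L was within 2-fold under normexp background correction (log2 ratio -0.22), spike-in scaling (-0.92) and scaling to probes well above background on all arrays (-0.93), and was not counted where both arrays had to be well above background. At signals as dim as those of IRF2, the normexp offset leaves little room for a 2-fold ratio. Median scaling counted 3 of 11 genes as lower with AZA in MDS-L, beside 25.2% of all genes. Between the lines with AZA, NFKB1 was within 2-fold under quantile normalization (0.83), in the authors' value table (0.83), under scaling to probes well above background on all arrays (0.80) and under normexp (0.75), where IRF2 was too (0.51). Genes for RFX subunits, with which NLRC5 works, included RFX5 at log2 ratios of 0.34 and 0.29 with AZA in MDS-L and MDS-L/CDA and RFXAP at -0.35 and -0.75. Of 6 genes of interferon gamma signalling, 0 were counted in any of the 4 comparisons. Under median scaling 2 of 6 were lower with AZA in MDS-L and 1 of 6 was lower in MDS-L/CDA than in MDS-L on the vehicle arrays. Of all genes, 25.2% and 10.6% were lower in those comparisons under that scaling.

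Of 16 other class I and class I-like genes, 14 were on the array under those names and 7 were measured, and 0 of those 7 were counted. HLA-J, a class I pseudogene, was 1.99-fold lower in MDS-L/CDA than in MDS-L on the vehicle arrays and 1.92-fold lower on the AZA arrays. Of the 7, 1 was counted as lower in each comparison of the lines under quantile normalization, in the authors' value table, under normexp and with arrays scaled to probes well above background on all of them. Between 1.53% and 8.14% of all genes were lower in those comparisons under these settings. The probes of CD1A, CD1B, CD1C, CD1D, CD1E, HFE and HLA-L were not well above background on any array.

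**Figure D4:**
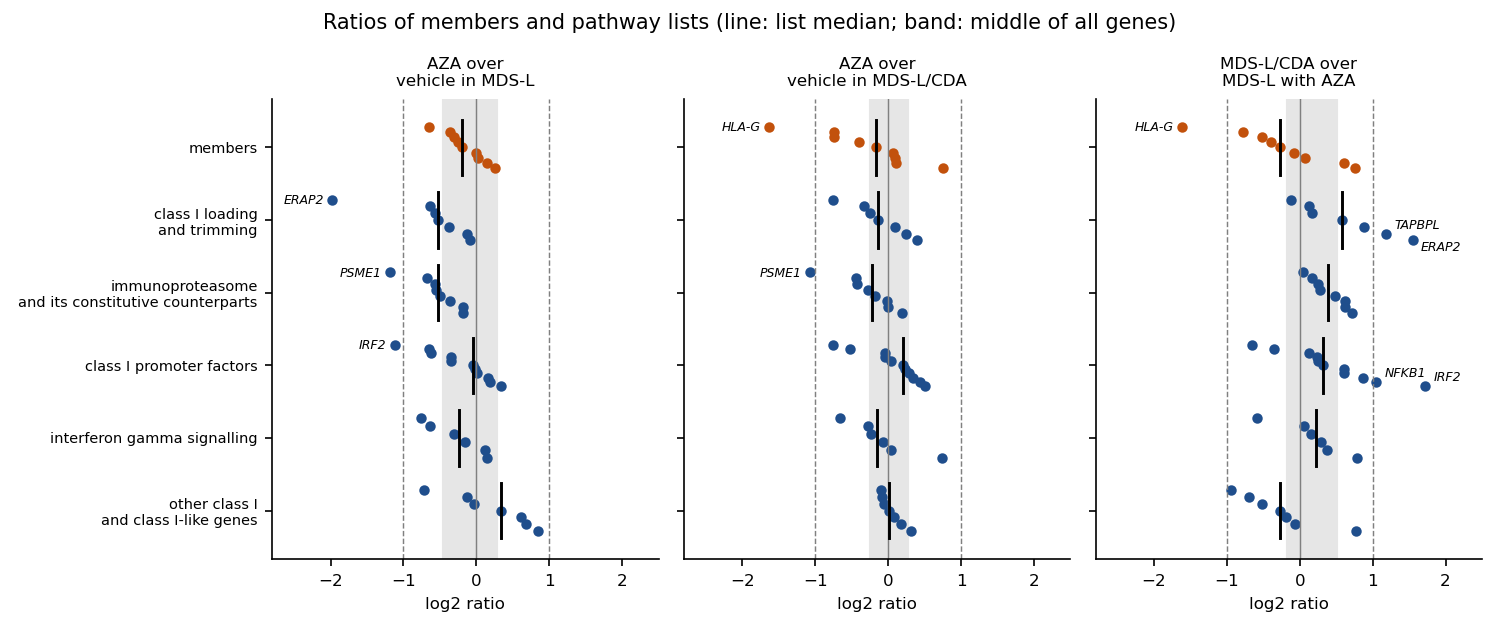
Log2 ratio of the 9 genes (members) and of the genes of 5 pathway lists with AZA in each line and between the lines with AZA, with a line for each median, a band for the middle 50% of all genes measured and dashed lines at 2-fold. All 7 loading and trimming genes and all 8 proteasome genes lay below 0 in MDS-L (5 of 7 and 6 of 8 under 4 other settings), with ERAP2 lowest at -1.98. The median of all genes there was -0.13.

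The 5 heavy chain genes lie in the class I region of chromosome 6, between the outermost of their probes at chr6:29692114-31321722 (hg19). The probes of 76 other genes lie in this interval of 1630 kb. With AZA in MDS-L, 47 of them were measured, of which 4 were higher and 2 lower by 2-fold, and their median log2 ratio was -0.04. IER3, an immediate early gene, was 4.31-fold higher in MDS-L and 2.77-fold higher in MDS-L/CDA, with 0.798, 3.44, 0.594 and 1.64 as its scaled signals. PSORS1C2, TRIM10 and PSORS1C1 were not well above background with vehicle and were at least 3.88-fold, 3.29-fold and 2.96-fold higher with AZA in MDS-L. None of these 3 was well above background on the MDS-L/CDA arrays. NRM, which encodes nurim of the nuclear envelope, was 2.05-fold lower and the pseudogene IFITM4P 2.02-fold lower in MDS-L. In MDS-L/CDA, 41 other genes were measured and IER3 was the only one counted, while HLA-G, in the same interval, was the 1 gene there that was lower by 2-fold.

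**Figure D5:**
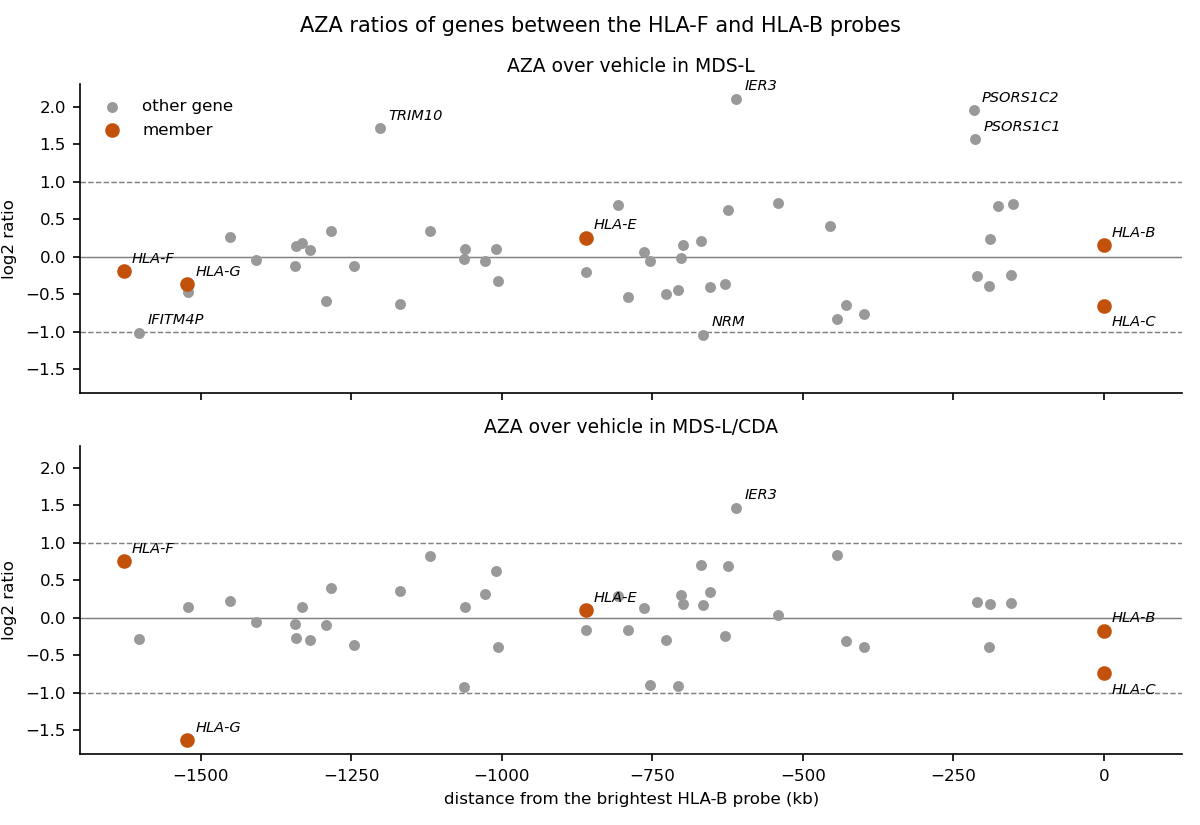
Log2 ratio with AZA in MDS-L (top) and MDS-L/CDA (bottom) against the distance of each gene's probe from the brightest HLA-B probe in kb, with dashed lines at 2-fold. The class I heavy chain genes (orange) lay within 2-fold in MDS-L, where IER3 reached 2.11, and HLA-G lay at -1.63 in MDS-L/CDA.

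All 9 genes were well above background on all 4 arrays by their brightest probe. After centring each on its own mean, the 9 genes averaged 0.16 with vehicle and 0.01 with AZA in MDS-L, and 0.06 and -0.23 in MDS-L/CDA, on the log2 scale. TAP1 was closest to this profile (root mean square difference 0.08) and HLA-G farthest (0.63). Among 13953 other genes well above background on every array, the nearest profiles over the 4 arrays were those of C16orf52, lnc-NT5DC3-1, OXLD1, SNORD46 and CMPK1, with root mean square differences between 0.01 and 0.02.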

How the data were processed

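Total RNA of 4 conditions, 1 array each, was measured on Agilent one-colour arrays. The authors deposited 2 kinds of intensity, both linear: scanner output of Feature Extraction 10.7.1.1, background-subtracted within the array, and a value table of 51680 probes that was used as an alternative. From the scanner intensity, control and outlier-flagged spots were dropped, each probe's spots were averaged on the log2 scale and the array's 75th percentile was subtracted. A gene was represented by its brightest probe over the 4 arrays. The methods of the study call genes by a ratio of 2 and a Z score of 2 whose formula is not given. The ratio alone was used here, and the Z score, from 10 bins of mean signal, was an alternative. Genes named were all members, listed genes (some are not reported here), those 2-fold different with AZA in MDS-L in the class I region, and the 5 nearest profiles. The members and the 5 pathway lists were chosen with earlier results of these data known. Promoters were RefSeq's (GRCh38.p14), matched by symbol. The number of arrays limits the precision. Python 3.11.15, numpy 2.4.6, pandas 2.3.3, matplotlib 3.10.9, R 4.3.3 and limma 3.58.1 (normexp, offset 50) were used.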

Additional observations from a re-analysis of the deposited data

Results flagged for a closer look

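The AZA log2 ratios of HLA-F lay on opposite sides of 0 in the 2 lines, each by more than the spot SD, -0.19 in MDS-L and 0.76 in MDS-L/CDA, a difference of 0.95. The MDS-L value was above 0 in 4 of 10 alternatives, and those on the background flag or the HLA-C probe could not change it. This HLA-F probe is listed for HLA-H too. The AZA log2 ratios of B2M also lay on opposite sides of 0, each by more than its SD, -0.31 and 0.12, a difference of 0.43. With 1 array per condition neither difference was tested.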

How the results depend on the processing

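With 10 alternatives that were planned and 2 added after the data had been seen, 30 of 360 recomputed ratios of single genes changed sign, in 14 of 36 pairs of a gene and a comparison, and 102 moved by more than the spot SD. The 360 include ratios that alternatives on the background flag could not change, because the brightest probe of every gene was well above background on every array. The 3 ratios that were 2-fold kept their direction. The 2-fold lower HLA-G signal in MDS-L/CDA with AZA, and between the lines with AZA, held under each alternative. Those that concern the background flag, the mean over probes or the HLA-C probe could not change it, since HLA-G has a single probe. Median scaling set the median log2 ratio of all genes at -0.67 in MDS-L with AZA and -0.44 between the vehicle arrays. The medians of the 9 genes were then -0.73 and -0.39. HLA-C was the 1 gene lower with AZA in MDS-L, beside 25.2% of all genes. The share of higher genes among all those counted was 11.5% and 3.37%, beside 52.7% and 42.8% without that scaling. Scaling to probes well above background on all arrays gave members' medians of -0.0084 with AZA in MDS-L and -0.52 between the lines with AZA. In the latter comparison 2 genes (HLA-B and HLA-G) were lower, beside 8.14% of all genes. The shares of higher genes were then 70.6% with AZA in MDS-L, 31.9% between the vehicle arrays and 22.7% between the AZA arrays, the last beside 51.0%. Normexp gave a median of -0.11 between the vehicle arrays, and shares of higher genes of 26.3% with AZA in MDS-L/CDA (45.2% without it), 12.5% and 22.5% between the lines. Averaging the probes of a gene, with those below background included, gave medians of -0.033 with AZA in MDS-L and -0.053 between the vehicle arrays, where 0 genes were then lower. Spike-in scaling, added later, gave a median of 0.0020 with AZA in MDS-L and 0 genes lower between the vehicle arrays, with shares of higher genes of 71.5% and 56.9%. A 1.5-fold cut-off gave 1 gene lower in MDS-L (HLA-C), 1 higher (HLA-F) and 3 lower (HLA-C, HLA-G and NLRC5) in MDS-L/CDA, and 2 higher and 2 lower between the lines with AZA. At that cut-off 18.1% of all genes measured were lower in MDS-L, and 9.32% were higher and 9.6% lower in MDS-L/CDA. Between the lines with AZA 20.3% were higher and 11.1% lower. The probe in the HLA-C gene was below that cut-off with AZA in both lines, at 1.21-fold and 1.22-fold lower. The causes were not tested. No paired analysis was possible because each condition has 1 array. Dim signal limits NLRC5 most.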
